A study of Homo sapiens with 3 samples.

Results

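RNA from AGS cells, a human gastric adenocarcinoma line, was compared between a culture given 18 µM of a compound named SFE for 48 h and a culture given DMSO, the vehicle, for the same time. Both cultures grew in 6-well plates in RPMI-1640 medium with serum, and their total RNA was depleted of ribosomal RNA before sequencing. Each condition is 1 library, so each difference below sets 1 culture against 1 culture, with no replicate and no test. A further library of the series, from cells given 12 µM of a compound named SFA, shares the DMSO library and is used only for values set side by side. The sources used here do not say what the code name SFE stands for. Of 50868 genes in the deposited table, 11383 stood at 1 FPKM or more in the DMSO or the SFE library and are described here, and 9329 of these were protein-coding. FPKM is the count scaled by the length of the gene and by the size of the library. A difference is log2(FPKM + 1) with SFE minus the same with DMSO, which understates the difference of genes with low values. A gene below 1 FPKM in 1 of these libraries could pass only through the other, so the filter fixed its direction. A fold is the ratio of counts after scaling to the library totals, and the range in brackets after it is its 95% exact interval, which covers counting error only.

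Electrophiles and oxidants act on cells through KEAP1, an adaptor that marks the transcription factor NRF2 for destruction until its cysteines are modified. NRF2 then pairs with small MAF proteins on antioxidant response elements and turns on genes that make glutathione and thioredoxin, detoxify quinones and aldehydes, break down heme and store iron. A shortage of amino acids or misfolded protein instead raises translation of ATF4, whose partners include CEBP proteins and which acts on genes for amino acid uptake and synthesis. In gastric epithelial lines the ERK pathway runs below growth factor receptors and RAS, and its output can be read from genes of its own feedback inhibitors and from ETS factors.

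Promoter windows are shown first because the redox and the amino acid genes are the groups described in most depth. RefSeq (GRCh38.p14) gave a promoter, 250 bases before to 50 after the start, for 7936 of the 11383 genes. The letters TGACNNNGC, the core of the antioxidant response element, were searched on both strands and occurred in 13.6% of 27195 RefSeq promoters and in 15.8% of the 7936. The following windows of redox genes hold that core in capitals, in the direction of the gene.
GCLM: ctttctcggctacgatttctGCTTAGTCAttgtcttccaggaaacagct
TXNRD1: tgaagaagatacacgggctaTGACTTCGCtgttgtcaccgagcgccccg
FECH: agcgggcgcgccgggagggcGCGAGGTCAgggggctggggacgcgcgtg
SLC3A2: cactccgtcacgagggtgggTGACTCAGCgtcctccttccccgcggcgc
GSTP1: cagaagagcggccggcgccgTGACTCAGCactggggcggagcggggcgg
These stretches lie at chr1:93909436-93909484 (minus strand) for GCLM, chr12:104215660-104215708 (plus) for TXNRD1, chr18:57586712-57586760 (minus) for FECH, chr11:62881642-62881690 (plus) for SLC3A2 and chr11:67583726-67583774 (plus) for GSTP1. GCLM and FECH hold the core on the opposite strand. The first 4 genes were chosen from higher genes and GSTP1 as a glutathione transferase that stood at almost the same level in both libraries, 92.1 FPKM in DMSO cells and 99.5 FPKM in SFE cells. Over 70 genes of the redox lists with a promoter, 16 held the core, a share of 22.9%. Of these 16, 12 were higher with SFE (median difference 0.35), and of the 54 without it 39 were higher (median 0.17). A match is a description of the letters in this window and not a bound site, and the shares do not separate the higher genes from the rest: 18.8% of the 16 redox genes at least 1.5-fold higher held the core, against 24.1% of the other 54. Among genes at least 2-fold higher, 21 of 85 held it (24.7%), and among those at least 2-fold lower, 11 of 55 (20%). In the lists of amino acid and ATF4 genes 15 of 71 held it (21.1%), so the share is not particular to the redox lists.

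The letters TGATGNAAN on either strand, a form of the element that CEBP and ATF proteins share, occurred in 3.67% of the 27195 promoters, in 1.6% of the 7936 and in 15 of 71 genes of the ATF4 and amino acid lists (21.1%). They are shown for 4 genes of these lists that stood at different distances from DMSO.
ASNS: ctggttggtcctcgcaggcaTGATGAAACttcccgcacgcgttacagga
AARS: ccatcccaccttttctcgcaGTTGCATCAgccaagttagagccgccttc
IARS: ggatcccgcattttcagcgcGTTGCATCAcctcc
BCAT1: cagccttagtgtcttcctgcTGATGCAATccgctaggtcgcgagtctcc
Their positions are chr7:97872448-97872496 for ASNS, chr16:70289666-70289714 for AARS, chr9:92293698-92293731 for IARS and chr12:24949121-24949169 for BCAT1, all on the minus strand. AARS and IARS hold the element on the opposite strand. ASNS, the asparagine synthetase, stood at 5.03 FPKM in DMSO cells and 9.65 FPKM in SFE cells, and AARS, the alanyl-tRNA synthetase, at 30.8 and 39.0 FPKM. IARS, the isoleucyl-tRNA synthetase, stood at 35.9 and 36.6 FPKM, and BCAT1, a branched-chain aminotransferase, at 3.20 and 1.31 FPKM. Genes with the element therefore lay on both sides of DMSO: 10 of the 15 were higher and 5 lower (median difference 0.09), beside 33 higher and 23 lower of 56 without it (median 0.05).

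The libraries held 18767232 counts with DMSO and 13644676 with SFE, and protein-coding genes took 94.5% and 94.4% of them. None of 10 leukocyte, 5 erythroid and 6 hepatocyte markers reached 1 FPKM in either library, whereas 1 of 7 endothelial markers, EGFL7, and 5 of 10 fibroblast markers did. Of 8 markers fixed for the labelled line, KRT8, KRT18, CDX2, MUC1 and GATA6 reached 1 FPKM in at least 1 library. EPCAM stood at 0.336 FPKM in DMSO cells and 0.0685 FPKM in SFE cells, KRT19 at 0.162 and 0.0514 FPKM and CDH1, the E-cadherin gene, at 0.147 and 0.0811 FPKM, so 3 defining epithelial markers were near 0 in both libraries. The identity of the line was not checked beyond these markers, and AGS below is the name in the labels. In bulk RNA, a lower level in every cell and fewer cells with a high level cannot be told apart.

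Most genes stood close to their level with DMSO. The median difference was 0.03, 6260 of the 11383 genes (55.0%) lay above 0, and 10367 (91.1%) lay within 1.5-fold either way. Genes past 2-fold numbered 160 on the higher side with SFE, 1.41% of all, and 118 on the lower side, 1.04%. Under median-ratio scaling, which shifts the differences by a median of −0.08, the counts were 128 and 148, so the balance between higher and lower genes depends on the scaling. At 4-fold, 20 genes were higher and 16 lower. Of all members, 7508 (66.0%) overlap another gene of the table, and no source used here gives the strand setting of the counting, so reads of overlapping genes cannot be told apart with certainty. Without overlapping genes, 47 lay past 2-fold on the higher side and 33 on the lower side. The 33 include MT-CO1, MT-CO2 and MT-ND5, which were listed at 0 counts with SFE and are not read as folds. A locus below is the summed counts of a gene and the genes that overlap it, and its fold is given beside genes whose reading it bears on.

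**Figure D1:**
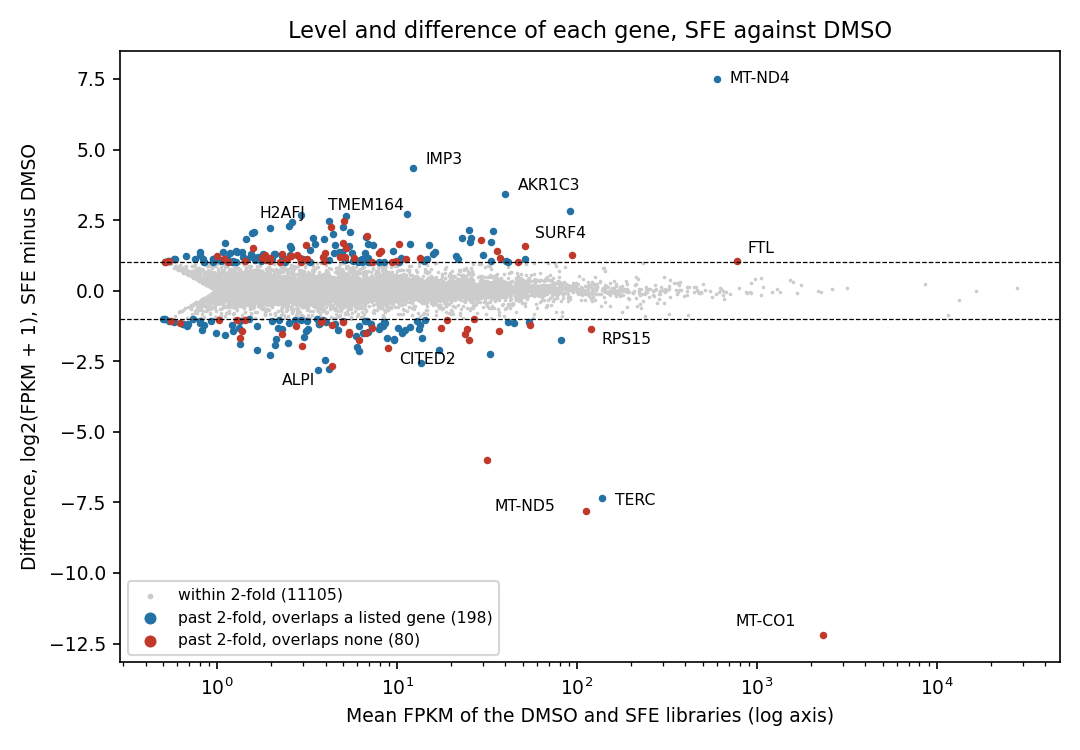
Difference in log2(FPKM + 1), SFE minus DMSO (vertical axis), against the mean FPKM of both libraries (horizontal log axis) for 11383 genes, 1 point each; coloured points lie at least 2-fold from 0 (dashed lines). Most points lie between the dashed lines at every level, and the most distant points, MT-CO1, MT-ND5 and MT-ND4, are mitochondrial genes.

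Among genes that overlap no other gene and had counts in both libraries, the highest ratio belonged to TMEM164, a membrane protein gene on chromosome X (110002631 to 110182734), with 194 counts with DMSO and 1546 with SFE (11-fold, 9.44 to 12.8). H2AFJ (H2AJ), a replication-independent histone H2A variant on chromosome 12 (14774383 to 14778002), stood at 0.811 FPKM in DMSO cells and 7.74 FPKM in SFE cells. CHRAC1, a histone-fold subunit of chromatin remodelling complexes, stood at 2.25 and 11.3 FPKM (5.03-fold, 4.39 to 5.78). These 3 genes were low with DMSO and reached moderate levels with SFE. TMEM164 and H2AFJ stood below 1 FPKM with DMSO, so the filter could admit them only as higher genes. SURF4, a cargo receptor that carries secretory proteins out of the endoplasmic reticulum, was among the more abundant of this group, with 25.4 and 77.1 FPKM (3.04-fold, 2.92 to 3.16). NR0B1, an orphan nuclear receptor gene, stood at 4.4 and 16.1 FPKM. LINC00942, a long noncoding RNA, stood at 12.4 and 45.7 FPKM (3.68-fold, 3.33 to 4.06).

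Several of the higher genes without overlap act at the cell surface or outside the cell. SRPX2, a secreted ligand that binds the urokinase receptor, stood at 1.85 FPKM in DMSO cells and 8.14 FPKM in SFE cells (4.41-fold, 3.5 to 5.59). PI3, the elastase inhibitor elafin, rested on 11 and 41 counts (5.13-fold, 2.59 to 11.1), so its ratio is imprecise. CSF1, the growth factor of macrophages, stood at 1.22 and 4.32 FPKM, and C5AR1, a complement receptor, at 0.921 and 3.67 FPKM. The filter could admit C5AR1, below 1 FPKM with DMSO, only as a higher gene. GDF15, a stress-responsive cytokine, stood at 2.72 and 7.54 FPKM (2.77-fold, 2.31 to 3.34). PANX2, a channel-forming pannexin, stood at 2.54 and 7.06 FPKM. Enzymes in the same group were GNPDA1, which converts glucosamine phosphate into fructose phosphate, at 4.03 and 12.3 FPKM (3.05-fold, 2.79 to 3.35), B3GAT3, which builds the linker of proteoglycans, at 7.88 and 18.9 FPKM, and DHRS3, a retinal reductase, at 3.18 and 8.31 FPKM.

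Among lower genes without overlap, intestinal alkaline phosphatase ALPI on chromosome 2 (232456123 to 232460032) had 514 counts with DMSO and 20 with SFE (18.7-fold lower, 12.0 to 30.8). Its paralog ALPPL2 stood at 3.92 and 0.693 FPKM (5.65-fold lower, 3.78 to 8.79), and the placental paralog ALPP at 54.8 and 10.9 FPKM. ALPP overlaps a noncoding gene that holds few of the counts, and its locus was 0.20 times DMSO. The alkaline phosphatases are near-identical genes next to each other, so reads may be shared among them, but all 3 were lower. ALPI and ALPPL2 stood below 1 FPKM with SFE, so the filter could admit them only as lower genes. CITED2, a co-regulator that binds CBP and p300, on chromosome 6 (139371807 to 139374620), stood at 14.9 and 2.94 FPKM (5.07-fold lower, 4.38 to 5.90). C1GALT1C1, the chaperone needed for O-glycan core synthesis, had 308 and 26 counts (8.61-fold lower, 5.77 to 13.4). The filter could admit C1GALT1C1, below 1 FPKM with SFE, only as a lower gene. PKDCC, a secreted tyrosine kinase, stood at 9.94 and 2.26 FPKM, and ARID5B, a DNA-binding regulator of fat cell and liver genes, at 8.55 and 2.32 FPKM.

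Housekeeping genes of moderate to high level were among the lower genes too. RPS15, a protein of the small ribosomal subunit, stood at 172 FPKM in DMSO cells and 66.3 FPKM in SFE cells (2.60-fold lower, 2.52 to 2.69). HACD2, a dehydratase of very long chain fatty acid synthesis, stood at 39.3 and 11 FPKM (3.56-fold lower, 3.31 to 3.84). Both rested on more than 800 counts in the lower library, so counting error is small beside the difference. SUMO3, a small ubiquitin-like modifier, stood at 35.7 and 11.8 FPKM, DNAJC8, a splicing-associated J protein, at 35.5 and 13.3 FPKM, ZNF282, a zinc finger gene, at 25.4 and 9.44 FPKM and YKT6, a SNARE of vesicle fusion, at 25.9 and 12.1 FPKM.

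Genes for quinone and aldehyde enzymes formed the list with the highest median. All 18 measured members were above 0 and 5 were at least 2-fold higher, with a median difference of 0.54 beside 0.03 over all genes. The 5 past 2-fold, AKR1C1, AKR1C2, AKR1C3, PTGR1 and OSGIN1, all overlap other genes. The 4 members without overlap, all above 0, had a median of 0.07. The count of 5 takes the AKR1C genes singly, with AKR1C3 entered under the identifier at 109 and 974 counts. OSGIN1 is not itself an enzyme of this kind. It stood below 1 FPKM with DMSO, so the filter could admit it only as a higher gene. The aldo-keto reductases AKR1C1, AKR1C2 and AKR1C3, which reduce steroids, quinones and lipid aldehydes, overlap each other on chromosome 10 and are near-identical, so only their sum was read: 2909 counts with DMSO and 8686 with SFE, 4.11 times DMSO. Within that sum the table holds AKR1C3 under a pair of identifiers, one at 739 and 803 counts and the other at 109 and 974, so the level of AKR1C3 alone is uncertain. PTGR1, a reductase of prostaglandins and alkenals, stood at 6.88 and 23.2 FPKM (3.37-fold, 3.09 to 3.67), and OSGIN1, a growth inhibitor induced by oxidants, at 0.850 and 4.31 FPKM. Both overlap other genes but hold over 90% of their locus counts in both libraries. NQO1, a quinone reductase, stood at 60.7 and 110 FPKM (1.82-fold, 1.76 to 1.88), and EPHX1, the microsomal epoxide hydrolase, at 22.2 and 41.9 FPKM. AKR1B1, an aldose reductase, stood at 45.0 and 66.0 FPKM, whereas its relative AKR1B10 stood at 7.11 and 7.12 FPKM.

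Among glutathione and cystine genes, those of uptake, synthesis and recycling named here were higher, and several transferases lay near DMSO. Of 26 measured genes 16 were higher and 10 lower, 2 past 2-fold on the higher side and none on the lower side (median 0.25). Without overlap, 9 of 13 were higher (median 0.41), and over the 20 members at 5 FPKM or more the median was 0.28. For uptake, SLC7A11, the cystine carrier, stood at 4.72 FPKM in DMSO cells and 14.1 FPKM in SFE cells, and SLC3A2, its heavy chain, at 57.0 and 85.2 FPKM (1.49-fold). For synthesis, the catalytic subunit GCLC stood at 1.67 and 3.93 FPKM (2.36-fold, 2.09 to 2.66), the modifier subunit GCLM at 5.62 and 10.7 FPKM (1.90-fold, 1.74 to 2.08) and GSS, glutathione synthetase, at 36.4 and 56.2 FPKM. For recycling, GSR, glutathione reductase, stood at 50.2 and 100 FPKM (2.0-fold, 1.92 to 2.08). ABCC3, an exporter of conjugates, had the highest difference of the list, 2.22 and 8.16 FPKM (3.67-fold, 3.34 to 4.04). The transferases GSTP1, GSTK1 and MGST3 lay near their DMSO levels, and GPX4, the peroxidase of membrane lipids, stood lower, at 137 and 107 FPKM. CHAC1, which breaks glutathione down, stood at 1.2 and 2.76 FPKM.

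In the thioredoxin system 12 of 16 genes were higher (median 0.24), and none passed 2-fold on the FPKM + 1 scale. Without overlap, 6 of 8 were higher (median 0.10), and over the 13 members at 5 FPKM or more the median was 0.29. SRXN1, sulfiredoxin, which repairs overoxidised peroxiredoxins, stood at 38.0 FPKM in DMSO cells and 76.8 FPKM in SFE cells (2.02-fold, 1.90 to 2.14). TXNRD1, the cytosolic thioredoxin reductase, stood at 19.8 and 38.6 FPKM (1.95-fold, 1.89 to 2.01) and TXN, thioredoxin itself, at 178 and 250 FPKM (1.40-fold, 1.35 to 1.46). The peroxiredoxins were mixed, with PRDX1 at 333 and 407 FPKM and PRDX2 at 140 and 111 FPKM. NADPH is the electron donor of both systems, and 10 of 14 genes of its supply were higher (median 0.10), none by 2-fold. ME1, malic enzyme, stood at 17.0 and 22.9 FPKM and PGD, a dehydrogenase of the pentose phosphate pathway, at 70.4 and 85.9 FPKM.

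Heme and iron genes lay on both sides of DMSO. Of 18 measured genes 12 were higher (median 0.22). Without overlap, 7 of 9 were higher (median 0.46), and over the 15 members at 5 FPKM or more the median was 0.44. Of the 18, 1 gene was at least 2-fold higher. That gene was FTL, the light chain of the iron store ferritin, an abundant transcript, with 507 FPKM in DMSO cells and 1047 FPKM in SFE cells (2.07-fold, 2.02 to 2.11). Its heavy chain partner FTH1 stood at 270 and 230 FPKM, so the ratio of the chains differed between the libraries. HMOX1, heme oxygenase, stood at 17.9 and 35.1 FPKM (1.96-fold, 1.82 to 2.10) and BLVRB, a biliverdin reductase, at 13.2 and 24.4 FPKM. FECH, the enzyme that inserts iron into heme, was at 3.86 and 6.89 FPKM (1.78-fold, 1.6 to 1.99), and ALAS1, the first enzyme of heme synthesis, was at 28.5 and 41.8 FPKM. TFRC, the transferrin receptor, stood at 31.4 and 26.0 FPKM and SLC11A2, an iron importer, at 6.01 and 4.31 FPKM.

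The regulators of NRF2 did not share a direction. KEAP1 stood at 18.5 FPKM in DMSO cells and 25 FPKM in SFE cells (1.35-fold, 1.28 to 1.42), and BACH1, a repressor at the same elements, at 1.73 and 2.66 FPKM. NFE2L2, which encodes NRF2, stood at 6.06 and 3.57 FPKM (1.70-fold lower, 1.54 to 1.87), with a locus at 0.63 times DMSO. Of the small MAF partners, MAFG stood at 8.53 and 14.9 FPKM, and MAFK at 5.51 and 1.86 FPKM (2.96-fold lower, 2.5 to 3.53). MAFK shares its locus with TMEM184A, and the locus also stood at 0.63 times DMSO. Levels of mRNA do not show the amount of NRF2 protein, which was not measured. SQSTM1, which binds KEAP1 in autophagy, stood at 32.2 and 70.5 FPKM (2.19-fold, 2.13 to 2.25), with a locus at 1.88 times DMSO.

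**Figure D2:**
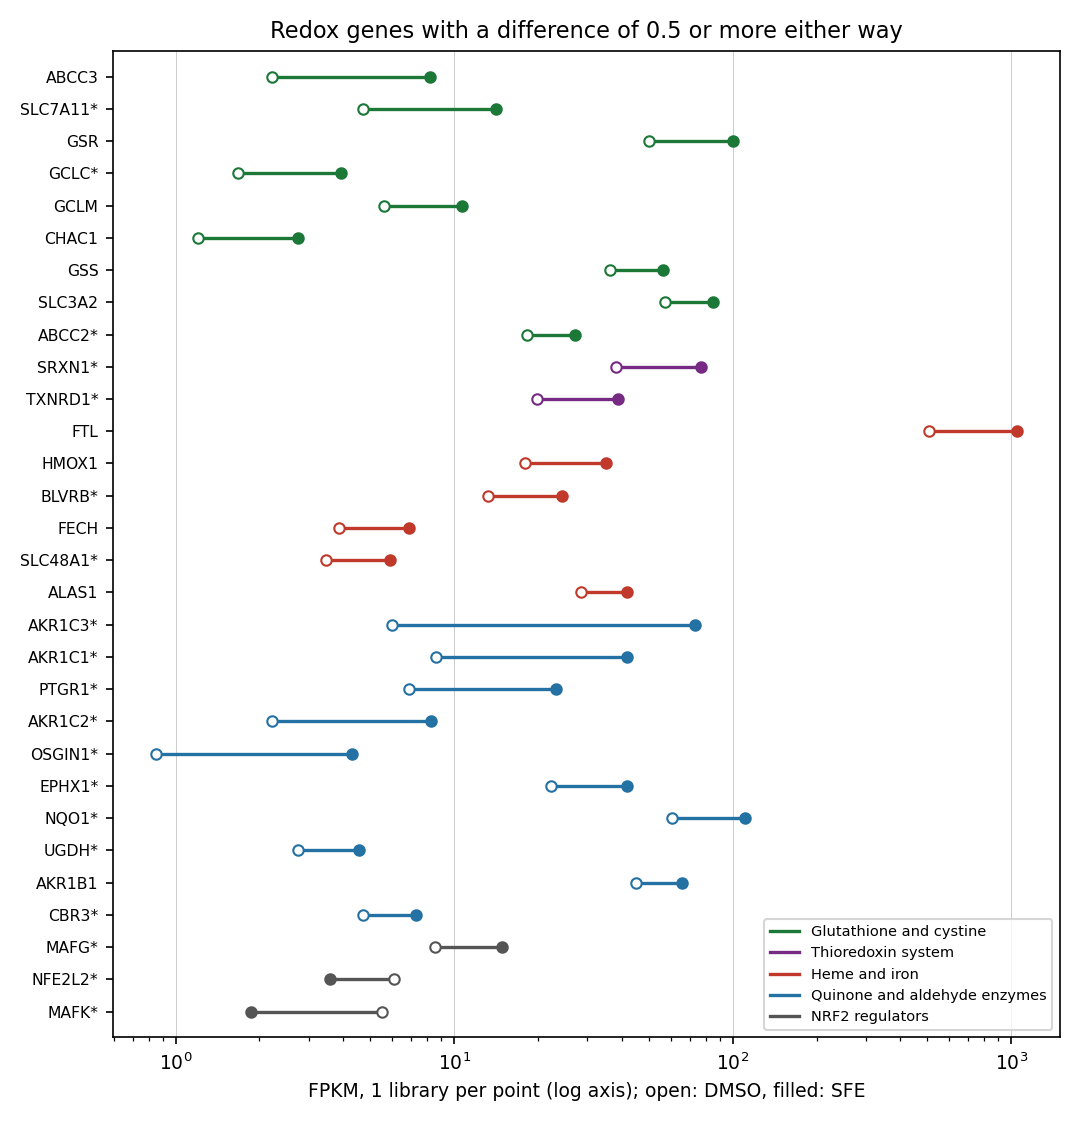
FPKM (log axis) of redox and NRF2 regulator genes whose difference is 0.5 or more either way, with DMSO (open) and SFE (filled), 1 library per point and no error bar; colours mark the lists and an asterisk a gene that overlaps another. FTL stands at 507 and 1047 FPKM at the right, and NFE2L2 and MAFK are the genes whose SFE point lies to the left.

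Genes of the ATF4 response lay on both sides of DMSO. ATF4 itself stood at 102 FPKM in both libraries (1.0-fold lower, 0.967 to 1.03). In the core list 12 of 21 genes were higher and 1, GDF15, at least 2-fold (median 0.11). The 11 members without overlap had a median of 0.34, with 8 higher. STC2, a secreted glycoprotein, stood at 7.63 and 13.4 FPKM, TRIB3, a pseudokinase that restrains ATF4, at 38.6 and 55.9 FPKM (1.45-fold, 1.38 to 1.52), and CEBPB, a partner of ATF4, at 13.9 and 21.5 FPKM. DDIT3, which encodes CHOP, had 78 and 140 counts and overlaps MARS, which had 5551 and 5625, and with a locus at 1.41 times DMSO its own share cannot be told apart. DDIT4, another target of ATF4, stood at 91.4 and 76.6 FPKM. The median was 0.02 for 18 amino acid transporters, −0.03 for 17 genes of serine, glycine and one-carbon metabolism, 0.10 for 20 aminoacyl-tRNA synthetases and 0.01 for 16 asparagine, proline and arginine enzymes. Within these, SLC1A5, the glutamine carrier, stood at 53.5 and 99.1 FPKM (1.85-fold, 1.79 to 1.92), PSAT1, the serine synthesis aminotransferase, at 60.5 and 98.6 FPKM (1.63-fold, 1.55 to 1.71), and PYCR1, which makes proline in mitochondria, at 20.6 and 13.4 FPKM. Endoplasmic reticulum chaperones were close to DMSO (10 of 23 higher, median −0.05): HSPA5, the chaperone BiP, stood at 119 and 138 FPKM, but CANX, calnexin, at 47.8 and 26.1 FPKM (1.83-fold lower, 1.77 to 1.91).

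Feedback inhibitors of the ERK pathway were mostly higher, 12 of 14 genes with a median of 0.42, and 2 at least 2-fold, DUSP4 and PHLDA1. Over the 8 members at 5 FPKM or more the median was 0.28. PHLDA1 stood below 1 FPKM with DMSO, so the filter could admit it only as a higher gene. DUSP4, a nuclear phosphatase of ERK, stood at 1.98 FPKM in DMSO cells and 5.76 FPKM in SFE cells (2.91-fold, 2.53 to 3.35). PHLDA1 stood at 0.552 and 2.39 FPKM, and SPRED2, which holds back RAF, at 2.20 and 5.35 FPKM (2.43-fold, 2.12 to 2.79). DUSP5, a phosphatase of nuclear ERK, stood at 1.59 and 3.62 FPKM and ERRFI1, an inhibitor of the EGF receptor, at 2.38 and 4.49 FPKM. DUSP1, another phosphatase, stood at 20.3 and 25.3 FPKM, while IER3 stood at 164 and 162 FPKM, so the more abundant members lay nearer to DMSO. Of 15 ETS factors 7 were higher (median −0.05), and ETV5 stood apart with 2.82 and 10.9 FPKM (3.88-fold, 3.47 to 4.35), where the gene holds over 90% of its locus counts. ETV4 had 198 and 938 counts, but the genes that overlap it had 3530 and 2509, and the locus stood at 1.27 times DMSO. Among the AP-1 and immediate early factors (9 of 18 higher, median 0.01), FOSL1 stood at 0.579 and 2.08 FPKM, JUN at 3.31 and 5.82 FPKM and FOS at 1.68 and 0.830 FPKM. FOSL1 stood below 1 FPKM with DMSO and FOS below it with SFE. The filter could therefore admit FOSL1 only as a higher gene and FOS only as a lower gene.

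Receptors and ligands above this pathway were uneven. EGFR stood at 7.31 FPKM in DMSO cells and 3.86 FPKM in SFE cells (1.90-fold lower, 1.76 to 2.05), and ERBB2 at 7.81 and 7.28 FPKM. The ligands EPGN, at 0.513 and 1.74 FPKM, and HBEGF, at 1.99 and 3.23 FPKM, were higher. The filter could admit EPGN, below 1 FPKM with DMSO, only as a higher gene. Among 18 receptor tyrosine kinases, 9 higher and 9 lower (median 0.02), AXL stood at 7.29 and 10.9 FPKM and EPHA2 at 45.5 and 62.1 FPKM, whereas IGF1R stood at 31.7 and 21.3 FPKM (1.49-fold lower, 1.44 to 1.53) and PDGFRB at 6.39 and 2.99 FPKM.

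In the noncanonical NF-kB branch, in which the kinase NIK drives processing of the p100 precursor, 3 genes were chosen from the NF-kB list after their values were seen. NFKB2, the p100 gene, stood at 4.45 FPKM in DMSO cells and 10.1 FPKM in SFE cells (2.27-fold, 2.05 to 2.53), RELB, its partner, at 0.308 and 1.52 FPKM (4.92-fold, 3.44 to 7.17) and MAP3K14, which encodes NIK, at 8.28 and 14.3 FPKM (1.73-fold, 1.62 to 1.85). In the canonical branch, NFKB1 stood at 6.27 and 6.3 FPKM, RELA at 3.06 and 3.68 FPKM and NFKBIA, the inhibitor, at 7.99 and 8.91 FPKM. The whole list held 16 higher genes of 18 (median 0.36), with 2 at least 2-fold higher, NFKB2 and IL6. RELB and IL6 stood below 1 FPKM with DMSO, so the filter could admit them only as higher genes. Over the 9 members at 5 FPKM or more the median was 0.16. ICAM1, an adhesion molecule, stood at 10.7 and 22.2 FPKM and the cytokine IL6 at 0.456 and 2.33 FPKM, from 42 and 156 counts. CCL2, a chemokine, stood lower, at 8.74 and 4.12 FPKM (2.12-fold lower, 1.79 to 2.52).

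YAP targets and matricellular genes were higher in 21 of 25 cases (median 0.29), 3 at least 2-fold. CTGF (CCN2) stood at 9.32 FPKM in DMSO cells and 36.4 FPKM in SFE cells (3.91-fold, 3.49 to 4.39) and CYR61 (CCN1) at 31.0 and 63.5 FPKM. THBS1, a thrombospondin, stood at 28.4 and 43.4 FPKM and YAP1 itself at 5.45 and 6.28 FPKM. Of the proteases and inhibitors 16 of 24 were higher (median 0.21). There, SERPINE2 stood at 17.4 and 30.9 FPKM, TIMP3 at 17.4 and 30.7 FPKM and the lysosomal protease CTSL at 7.92 and 15.2 FPKM. A2M, the broad protease inhibitor alpha-2-macroglobulin, went the other way, with 127 and 36.7 FPKM (3.46-fold lower, 3.35 to 3.57) and a locus at 0.29 times DMSO.

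**Figure D3:**
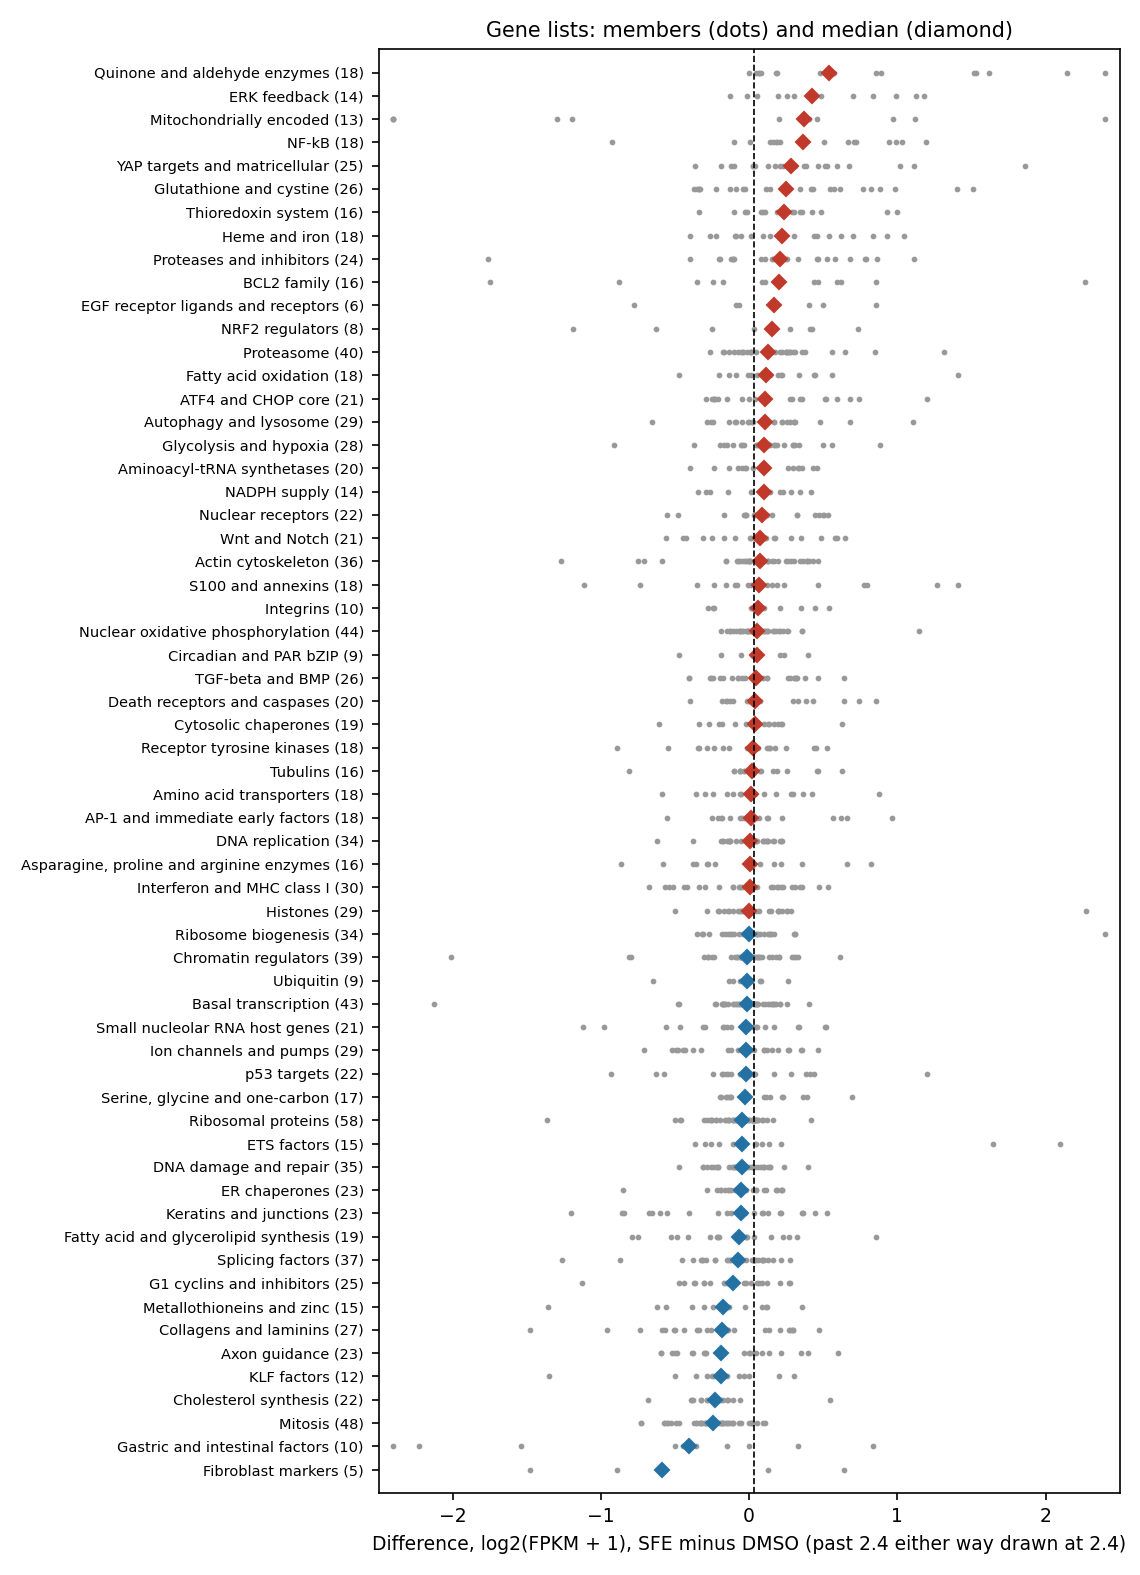
Difference in log2(FPKM + 1), SFE minus DMSO, of each measured member (dots) and the median (diamond) of 61 gene lists with 5 or more measured members, the number measured in brackets; the dashed line is the median over all genes, 0.03. Medians run from −0.59 for 5 fibroblast markers to 0.54 for 18 quinone and aldehyde enzymes, and most lie close to the dashed line.

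In the BCL2 family, which controls permeability of the outer mitochondrial membrane, the anti-apoptotic genes BCL2L1 and MCL1 stood on opposite sides. MCL1, which encodes a short-lived guardian, stood at 15.4 FPKM in DMSO cells and 3.88 FPKM in SFE cells (3.97-fold lower, 3.61 to 4.38) and holds over 90% of its locus counts. BCL2L1, which encodes BCL-XL, had 142 and 864 counts, the genes that overlap it had 660 and 394, and the locus stood at 2.16 times DMSO. Among the effectors, BAX stood at 4.61 and 7.6 FPKM (1.65-fold, 1.46 to 1.86), BAK1 at 15.9 and 8.22 FPKM (1.94-fold lower, 1.73 to 2.17) and BOK at 20.8 and 31.9 FPKM, so the effectors lay on both sides of DMSO. The BH3-only gene BIK rested on 11 and 25 counts. Of 20 death receptor and caspase genes 12 were higher (median 0.04): CASP2 stood at 4.35 and 8.67 FPKM (1.99-fold, 1.85 to 2.15) and TNFRSF21, a death receptor, at 32.4 and 51.0 FPKM. p53 targets did not share a direction, 9 of 22 higher (median −0.02). The 1 past 2-fold, GDF15, was higher, at 2.72 and 7.54 FPKM. Among lower ones, CDKN1A, the p21 gene, stood at 19.2 and 17.3 FPKM, CCNG1 at 7.57 and 3.48 FPKM (2.17-fold lower, 1.95 to 2.43) and BTG2 at 11.5 and 7.08 FPKM.

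Cholesterol synthesis genes were lower in 21 of 22 cases, each by less than 2-fold on the FPKM + 1 scale (median −0.23). SREBF2, the master regulator, stood at 37.2 FPKM in DMSO cells and 28.2 FPKM in SFE cells (1.32-fold lower, 1.28 to 1.37), FDFT1, squalene synthase, at 30.1 and 22.8 FPKM and INSIG1, a sensor of sterols, at 10.3 and 7.97 FPKM. EBP, a sterol isomerase, was the 1 higher member, at 18.7 and 27.8 FPKM. Genes of fatty acid synthesis were lower in 13 of 19 cases (median −0.07): SCD, the desaturase, stood at 224 and 133 FPKM (1.68-fold lower, 1.64 to 1.72), SREBF1 at 24.9 and 13.9 FPKM and FASN at 255 and 177 FPKM, whereas ELOVL5, an elongase of polyunsaturated fatty acids, stood at 6.60 and 12.8 FPKM (1.93-fold, 1.77 to 2.12). The most abundant enzymes of this list were thus among the lower ones. Fatty acid oxidation genes were higher in 13 of 18 cases (median 0.12), with SLC25A20, the carnitine carrier, at 8.44 and 12.9 FPKM and HADH at 10.2 and 7.06 FPKM.

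Mitosis genes were lower in 41 of 48 cases, none by 2-fold on that scale (median −0.24). TOP2A, the topoisomerase that untangles chromosomes, stood at 25.4 FPKM in DMSO cells and 14.9 FPKM in SFE cells (1.70-fold lower, 1.6 to 1.81), and KIF11, a spindle motor, at 8.64 and 4.83 FPKM. PLK1, the polo kinase, stood at 50.7 and 36.2 FPKM and CCNB1, cyclin B, at 81.7 and 66.7 FPKM, and MKI67, a marker of cycling cells, at 4.57 and 4.06 FPKM. DNA replication genes lay around DMSO (19 of 34 higher, median 0.01): MCM2 stood at 88.3 and 103 FPKM, PCNA at 76.0 and 82.6 FPKM, and TK1, thymidine kinase, at 51.9 and 33.3 FPKM (1.56-fold lower, 1.47 to 1.65). Among G1 genes (8 of 25 higher, median −0.11), CCND1 stood at 35.2 and 42.7 FPKM, while CDKN2B, which encodes the inhibitor p15, stood at 12.0 and 4.93 FPKM (2.43-fold lower, 2.17 to 2.72). Histone genes had a median of 0.00 over 29 members, among which H2AFJ was the 1 at least 2-fold higher. As said above, the filter could admit H2AFJ only as a higher gene.

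Keratin genes lay on both sides of DMSO. KRT8, a keratin of simple epithelium, stood at 416 FPKM in DMSO cells and 232 FPKM in SFE cells (1.80-fold lower, 1.78 to 1.82) and its pairing partner KRT18 at 534 and 294 FPKM. KRT8 and KRT18 overlap, and their locus stood at 0.55 times DMSO. KRT17 stood at 76.9 and 32.9 FPKM (2.34-fold lower, 2.24 to 2.45) and KRT81 at 273 and 180 FPKM. KRT7, on the other hand, stood at 118 and 151 FPKM (1.28-fold, 1.25 to 1.31) and VIM, the filament protein of mesenchymal cells, at 84.4 and 122 FPKM (1.44-fold, 1.41 to 1.47). Over keratins and junction genes 10 of 23 were higher (median −0.06). DSP, desmoplakin, stood at 22.4 and 14.9 FPKM, F11R, a tight junction molecule, at 9.35 and 5.46 FPKM and MUC1, a surface mucin, at 5.43 and 3.09 FPKM. RDX, radixin, which ties actin to the membrane, stood at 4.30 and 1.2 FPKM (3.59-fold lower, 3.13 to 4.12), but its paralogs EZR, at 50.2 and 64.7 FPKM, and MSN, at 170 and 167 FPKM, did not lie with it.

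S100 genes, which encode small calcium-binding proteins clustered on chromosome 1, split into higher and lower members. S100A16 stood at 19.2 FPKM in DMSO cells and 52.9 FPKM in SFE cells (2.75-fold, 2.56 to 2.95), S100A10, the partner of annexin A2, at 54.3 and 132 FPKM (2.43-fold, 2.31 to 2.56) and S100A11 at 101 and 177 FPKM. S100A4 stood at 74.0 and 33.6 FPKM (2.20-fold lower, 2.04 to 2.38) and S100A6 at 104 and 61.7 FPKM (1.68-fold lower, 1.59 to 1.78). Abundant members thus lay on both sides of DMSO, beyond counting error. ANXA1, annexin A1, stood at 13.4 and 23.6 FPKM, while ANXA2 stood at 121 and 132 FPKM.

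Collagens and laminins were lower in 18 of 27 cases (median −0.18). COL3A1 stood at 8.47 FPKM in DMSO cells and 2.4 FPKM in SFE cells (3.53-fold lower, 3.12 to 4.01), COL5A1 at 44.5 and 22.4 FPKM (1.98-fold lower, 1.92 to 2.05) and COL1A1 at 11.3 and 7.16 FPKM. Of the epithelial laminin chains, LAMB3 stood at 30.2 and 37.1 FPKM and LAMA3 at 2.02 and 1.66 FPKM. COL1A1, COL3A1 and PDGFRB are also fibroblast markers, of which 5 of 10 were measured. Summed over all 10, the fibroblast markers held 48.8 FPKM in DMSO cells and 39.5 FPKM in SFE cells, with PDGFRA at 0 in both libraries, and their part in the collagen values was not tested. Integrins were close to DMSO (7 of 10 higher, median 0.06), with ITGA5, a fibronectin receptor chain, at 27.2 and 39.8 FPKM. Among axon guidance genes 9 of 23 were higher (median −0.19), and SEMA3C and SEMA3F, secreted semaphorins, stood at 4.39 and 2.57 FPKM and at 9.82 and 6.66 FPKM.

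In the list of gastric and intestinal factors, named for the labelled tissue, 8 of 10 genes were lower (median −0.40). The list includes the 3 alkaline phosphatases, which were its only members at least 2-fold lower. Of these, ALPP is the placental gene, so the count is not a measure of gastric identity. GATA6 stood at 0.469 FPKM in DMSO cells and 1.62 FPKM in SFE cells (3.45-fold, 2.44 to 4.95), whereas KLF5 stood at 6.73 and 4.47 FPKM and SOX9 at 3.49 and 2.29 FPKM. The filter could admit GATA6, below 1 FPKM with DMSO, only as a higher gene. Of the KLF factors 10 of 12 were lower (median −0.19), and KLF13 was the 1 past 2-fold, at 19.5 and 7.06 FPKM (2.77-fold lower, 2.59 to 2.96). Metallothioneins and zinc carriers were lower in 11 of 15 cases (median −0.18). MT1G stood at 5.03 and 1.35 FPKM and MT1E at 181 and 123 FPKM, but MT2A at 37.4 and 40.7 FPKM. Interferon and class I genes had 15 higher and 15 lower members (median 0.01), with HLA-B at 4.44 and 2.74 FPKM and ISG15 at 3.76 and 5.59 FPKM. Class I genes such as HLA-B belong to a family of similar sequences, so their values are uncertain.

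In the machinery of gene expression most members lay near DMSO and single members lay far from it. Of 43 basal transcription genes 19 were higher (median −0.02). Only TAF7, a subunit of TFIID, passed 2-fold among them, at 10.6 FPKM in DMSO cells and 1.66 FPKM in SFE cells (6.40-fold lower, 5.06 to 8.20), while its partners TAF8 and TAF10 stood at 2.91 and 3.44 FPKM and at 8.93 and 10.9 FPKM. Of 37 splicing factors 14 were higher (median −0.08), and SRSF2 stood at 9.07 and 3.20 FPKM, with a locus at 0.64 times DMSO, and SRSF4 at 5.14 and 2.36 FPKM (2.18-fold lower, 1.95 to 2.43). Of 58 ribosomal protein genes 19 were higher (median −0.05), and RPS15 was the 1 past 2-fold. RPS16, at 83.5 and 58.9 FPKM (1.42-fold lower, 1.37 to 1.47), and RPLP0, at 318 and 257 FPKM (1.24-fold lower, 1.22 to 1.25), came next. Of 39 chromatin regulators 18 were higher (median −0.01), and beside CITED2 the lowest were HDAC4, a deacetylase, at 3.95 and 1.82 FPKM (2.17-fold lower, 1.96 to 2.4), and KAT6A, an acetyltransferase, at 3.56 and 1.62 FPKM. Chromatin-bound MALAT1, a nuclear noncoding RNA, stood at 57.1 and 25.7 FPKM (2.22-fold lower, 2.16 to 2.29), with a locus at 0.48 times DMSO.

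Proteasome genes leaned upward, 30 of 40 higher with a median of 0.13. PSME3, the nuclear activator PA28 gamma, was the 1 at least 2-fold higher, at 8.70 FPKM in DMSO cells and 23.1 FPKM in SFE cells (2.66-fold, 2.53 to 2.80), with a locus at 2.31 times DMSO. PSMB6 and PSMB1, subunits of the catalytic core, stood at 33.1 and 52.3 FPKM and at 42.1 and 62.4 FPKM. Nuclear genes of oxidative phosphorylation were near DMSO (28 of 44 higher, median 0.06), except ATP5D, the delta subunit of ATP synthase, at 23.0 and 51.9 FPKM (2.26-fold, 2.15 to 2.38). Glycolysis and hypoxia genes had 19 of 28 higher (median 0.10): PKM stood at 458 and 539 FPKM and PFKFB4 at 1.30 and 3.24 FPKM (its locus at 1.98 times DMSO), while HIF1A stood at 10.9 and 6.25 FPKM (1.74-fold lower, 1.61 to 1.89).

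Some of these genes stood near DMSO in the SFA library, whose dose differed, and the values are set side by side without a comparison of the compounds. Both treated libraries are set against the same DMSO library. Of the 47 higher genes without overlap, 8 stood within 1.5-fold of DMSO in the SFA library, and of the 33 lower, 14 did. The 14 include MT-CO1, MT-CO2 and MT-ND5, whose zeros with SFE are given below and are not read as folds. SURF4 stood at 25.4 FPKM in DMSO cells, 24.1 in SFA cells and 77.1 in SFE cells. GNPDA1 stood at 4.03, 5.35 and 12.3 FPKM in that order, and ATP5D at 23.0, 26.2 and 51.9 FPKM. RPS15 stood at 172, 197 and 66.3 FPKM, and C1GALT1C1 at 5.29, 6.89 and 0.614 FPKM. These 5 genes are among those past 2-fold with SFE and within 1.5-fold of DMSO with SFA. That their SFE level stands apart follows from this choice, and each level is 1 library. Among overlapping genes, C6orf106 (ILRUN) had 995 counts in DMSO cells, 613 in SFA cells and 2812 in SFE cells, and holds most of its locus, at 3.41 times DMSO. TAF7 stood at 10.6, 12.4 and 1.66 FPKM, EGFR at 7.31, 7.35 and 3.86 FPKM and BAK1 at 15.9, 20.5 and 8.22 FPKM. TMEM164, in contrast, stood at 0.851, 9.42 and 9.32 FPKM, and S100A10 at 54.3, 131 and 132 FPKM.

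Many of the genes past 2-fold overlap others, as do 66.0% of all members. Of the 160 higher genes 113 overlap another gene, and in 58 of these the locus lay within 1.5-fold of DMSO on the log2(CPM + 1) scale, while in 44 it was past 2-fold in the same direction. Of the 118 lower genes 85 overlap, with 34 and 45 in the same order. A locus sum that abundant neighbours dominate moves little whatever the gene does. The overlapping genes changed by more than the gene, in the opposite direction, in 13 of the 113 and 22 of the 85. TOMM6, a subunit of the mitochondrial import pore, shows the first kind, a locus within 1.5-fold. It had 261 counts with DMSO and 862 with SFE, while the genes that overlap it had 2248 and 1096, and the locus stood at 1.07 times DMSO. ANGPTL4, a lipase inhibitor, had 36 and 251 counts in a locus at 0.99 times DMSO. TREX2 had 364 and 50 counts and HAUS7, which overlaps it, 275 and 651, in a locus at 1.51 times DMSO. For these 3 genes the counts of the overlapping genes lay on the opposite side of DMSO, and their differences are not read as differences in expression. IMP3, a ribosome biogenesis gene, had 17 and 1264 counts in a locus at 1.6 times DMSO. In the second kind, a locus past 2-fold, some genes hold most of their locus, as for PTGR1, ETV5, KLF13, HPD and PEA15. Others hold little of it, such as AKR1C2, with 13.7% of its locus counts with DMSO and 12.5% with SFE. For those, the locus can move with the overlapping genes. Of the overlapping genes past 2-fold, 25 higher and 27 lower ones hold 90% or more of their locus counts in both libraries. HPD, an enzyme of tyrosine breakdown, stood at 21.5 and 6.11 FPKM and PEA15, a death effector domain protein that binds ERK, at 15.2 and 3.98 FPKM. TERC, the RNA of telomerase, had 2790 and 5 counts, and 6 with SFA.

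**Figure D4:**
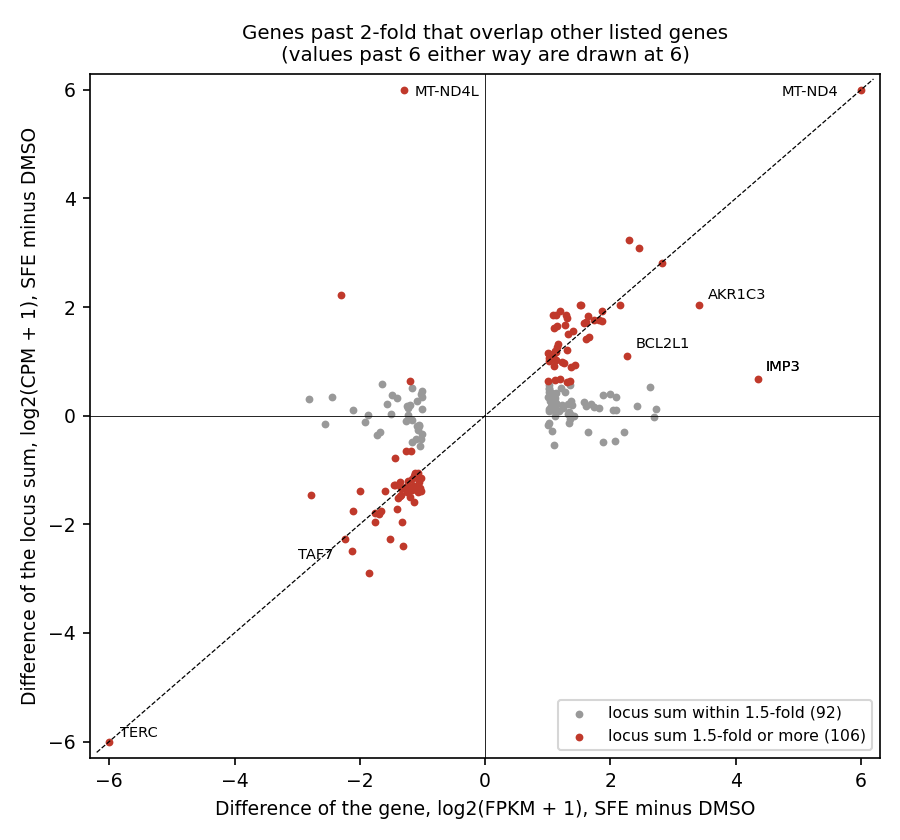
Difference of the gene in log2(FPKM + 1) (horizontal) against the difference of the summed counts of its locus in log2(CPM + 1) (vertical), SFE minus DMSO, for the 198 genes past 2-fold that overlap other listed genes; CPM is counts scaled to the library total. The 92 grey genes have a locus within 1.5-fold of DMSO, the dashed line marks equal differences, and differences beyond 6 either way are drawn at 6.

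Mitochondrially encoded genes held zeros beside very high values. MT-CO1, a subunit of cytochrome oxidase, was listed at 134786 counts in DMSO cells, 97155 in SFA cells and 0 in SFE cells, MT-CO2 at 810, 604 and 0 and MT-ND5 at 7633, 7710 and 0. MT-ND4 was listed at 143, 201 and 22427 counts in that order. Several neighbouring genes did not share these zeros: MT-ND1 was listed at 23961 counts with DMSO and 22497 with SFE, MT-ND2 at 17410 and 17421 and MT-CYB at 18094 and 17370. The SFE library is smaller, and in FPKM these 3 genes were higher with SFE: 1336 and 1725, 890 and 1225, and 845 and 1116. MT-ND3 stood at 157 and 309 FPKM, and MT-ND4L, which overlaps MT-ND4, had 96 and 26 counts. MTCO1P12, a nuclear copy of MT-CO1 on chromosome 1, was listed at 634 counts in DMSO cells, 3137 in SFA cells and 3397 in SFE cells. Over 11 mitochondrial genes and 3 nuclear copies the sum came to 12559 CPM in DMSO cells, 14195 in SFA cells and 8193 in SFE cells, and the 3 copies alone held 8080, 9583 and 10520 counts in that order. The sources used here do not say how reads were assigned among these genes, and no fold is drawn from the zeros.

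**Figure D5:**
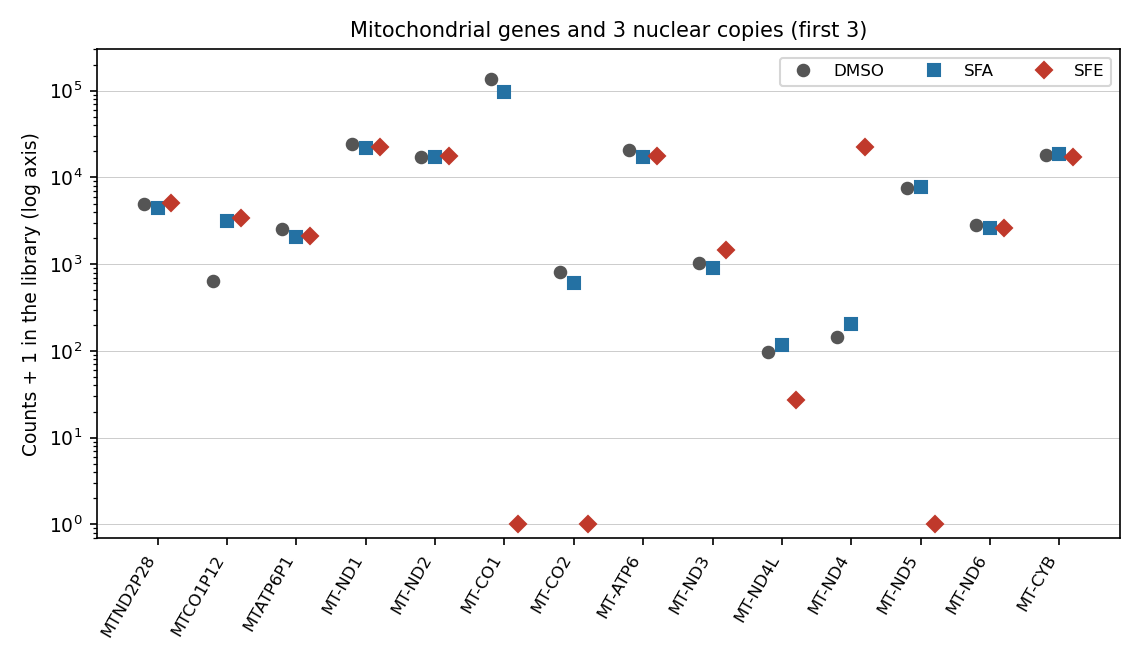
Counts plus 1 (log axis) of 3 nuclear copies and 11 mitochondrial genes in the DMSO (circles), SFA (squares) and SFE (diamonds) libraries, 1 library each, for genes at 100 counts or more in at least 1 library. MT-CO1, MT-CO2 and MT-ND5 lie at 0 counts with SFE, drawn at 1, and MT-ND4 lies at 22427 counts with SFE.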

How the data were processed

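Total RNA of AGS cells was sequenced after removal of ribosomal RNA, with 1 library per condition. Build hg38, StringTie 1.2.3 and HISAT2 2.0.4 are named, without roles, per the submitters' processing notes. Which tool counted reads, with which strand setting and annotation, is not given in the sources used here. Raw counts per gene were deposited as whole numbers. The deposited FPKM values are these counts scaled by gene length and library total and so carry the same counting error. All columns of the table were assigned to libraries by the descriptions in the labels.

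Genes at 1 FPKM or more in the DMSO or the SFE library were kept, and the row with the highest mean FPKM for each name. That left 11383 of 11398 rows. Differences used a pseudocount of 1 on FPKM and a limit of 2-fold. Folds are ratios of counts per library total with 95% exact conditional binomial (Clopper-Pearson) intervals. These intervals were tried on simulated counts that carried counting error alone, which is what the intervals assume. That trial does not bear on read assignment, overlap or differences between cultures. Reads carried no molecular identifiers that the sources used here name, so intervals cover counting error only. Overlap between genes was taken from the coordinates in the table, and biotypes from GENCODE 29. Promoters came from RefSeq, build GRCh38.p14. Python 3.11.15, numpy 2.4.6, pandas 2.3.3, scipy 1.17.1 and matplotlib 3.10.9 were used.

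The members, the 65 gene lists and the comparisons were chosen with earlier results of these data known. Genes were named by size (the 20 protein-coding genes furthest each way at 5 FPKM or more, the 15 furthest each way among those without overlap, and 5 noncoding genes each way), as up to 6 members of each list, and as defining members of the lists. Other list members and genes without overlap are named to show a role, and were chosen after their values were seen. Alternatives were a pseudocount of 0.1, a filter of 5 FPKM and none, median-ratio scaling, protein-coding genes only, genes without overlap, locus sums and, added after seeing the data, genes that hold 90% or more of their locus counts. With 1 library per group no replicate could be left out. Some genes that the naming rule selects are not reported here.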

Additional observations from a re-analysis of the deposited data

How the results depend on the processing

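No paired analysis was possible because each group has 1 library, and for the same reason no replicate could be left out. The 160 genes at least 2-fold higher became 434 with a pseudocount of 0.1, 89 with a filter of 5 FPKM, 101 among protein-coding genes, 47 without overlapping genes and 72 among genes without overlap or with 90% or more of their locus counts. The 118 lower genes became 263, 72, 85, 33 and 60 in the same order. Under median-ratio scaling the counts were 128 and 148, and in locus sums 181 and 151. Removing the filter of 1 FPKM cannot change these counts, and a smaller pseudocount can only enlarge a difference, so neither bears on stability. Of 96 named genes past 2-fold, 93 stayed past it under median-ratio scaling and 74 in locus sums. In locus sums 8 changed sign: TMEM265 to −0.0213, RP11-302B13.5 to −0.49, ANGPTL4 to −0.0133, MT-ATP8 to 0.20, MT-ND4L to 6.91, TREX2 to 0.58, URGCP-MRPS24 to 0.34 and CTD-2132N18.3 to 0.30. A locus sum adds the counts of the overlapping genes to those of the gene. Of 61 list medians, 17 changed sign under median-ratio scaling, all at 0.08 or less in size before it, and 9 with a filter of 5 FPKM. Without overlapping genes 7 of 56 changed sign. Depth limits genes with few counts, such as PI3 and BIK, whose intervals span more than 4-fold.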
